A study of Homo sapiens with 5 samples.

Results

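The genes examined here carry glucose into the cell and through the first steps of glycolysis. They were the glucose transporters SLC2A1 and SLC2A3, the hexokinases HK1 and HK2, the isomerase GPI, the phosphofructokinase subunits PFKL, PFKM and PFKP, and the regulatory enzymes PFKFB3 and PFKFB4. These 10 of 20162 protein-coding genes were listed by name for their place in the pathway, with no measured value in the rule. Earlier results of these data were known when the list was made. Each gene was given every peak that lay in its annotated span or within 50 kb of it on hg19, with gene positions from GENCODE release 44. In this way 68 of the 29781 peaks in the 4 lists were assigned.

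Nrf2 and HIF1α were mapped by ChIP-seq in BEAS-2B cells, an immortalized line of human bronchial epithelium, to ask how both factors act on metabolism when the cells meet inorganic arsenic (iAs). All cells were kept overnight in medium free of serum, and were then left without iAs (control) or given 1 μM iAs for 6 h. By the labels, the antibody against Nrf2 came from Santa Cruz and that against HIF1α from Abcam, while the methods name another supplier. There was 1 library for each antibody and condition, so no value below has a replicate check and no difference was tested. An input library was also sequenced, but no peak list of it was used here. The lists hold 3204 (Nrf2, control), 7743 (Nrf2, iAs), 6008 (HIF1α, control) and 12826 (HIF1α, iAs) peaks, each given as a start and an end with no height. Read depth is therefore unknown, and peaks were compared by presence, position and width. The lists hold no RNA levels, so the cell type could not be checked against marker genes.

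Glucose enters the cell through SLC2A proteins, is trapped by phosphorylation on a hexokinase, is turned into a fructose phosphate by GPI, and is committed to glycolysis by phosphofructokinase. HIF1α, the oxygen-regulated subunit of HIF1, is known to act on many of these genes through hypoxia response elements, whose core reads ACGTG or GCGTG. Nrf2, released from Keap1 by electrophiles and metals, pairs with small Maf proteins on antioxidant response elements, whose core reads TGACNNNGC. The letters TGACTCA often overlap such elements and are also the site of the AP-1 family.

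The stretches below were chosen because the results turn on them. They are hg19 sequence of the plus strand, written 5′ to 3′, and each lies inside a peak. Capitals mark matches on either strand. In the first group, from the 3 sites with a peak in all 4 libraries, capitals mark TGACTCA or TGACNNNGC, except in the longer GPI stretch, where they mark ACGTG or GCGTG.
SLC2A1 intron 2 (chr1:43406792-43406892): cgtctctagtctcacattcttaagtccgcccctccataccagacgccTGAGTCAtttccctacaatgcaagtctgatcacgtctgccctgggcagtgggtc
SLC2A1 intron 2, second stretch (chr1:43407550-43407650): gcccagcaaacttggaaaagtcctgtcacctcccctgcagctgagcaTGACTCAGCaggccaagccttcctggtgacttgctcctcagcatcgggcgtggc
GPI upstream, shared by the 4 peaks in part (chr19:34850194-34850373): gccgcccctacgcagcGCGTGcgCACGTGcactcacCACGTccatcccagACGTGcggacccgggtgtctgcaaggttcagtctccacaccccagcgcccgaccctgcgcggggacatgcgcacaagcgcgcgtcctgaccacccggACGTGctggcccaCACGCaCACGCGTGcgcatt
GPI upstream, Nrf2 peaks only (chr19:34850485-34850513): gccggtcaacaTGACTCAGCatcctcggt
PFKP upstream (chr10:3088147-3088247): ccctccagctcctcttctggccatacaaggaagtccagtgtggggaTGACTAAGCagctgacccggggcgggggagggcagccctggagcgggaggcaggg

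The second group comes from 3 sites where control cells alone had a HIF1α peak and treated cells alone had an Nrf2 peak. Capitals again mark TGACTCA or TGACNNNGC, and the SLC2A1 stretch holds neither.
SLC2A1 intron 1 (chr1:43415114-43415214): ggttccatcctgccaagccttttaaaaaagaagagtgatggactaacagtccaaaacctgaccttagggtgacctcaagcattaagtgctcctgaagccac
HK2 downstream (chr2:75144966-75145066): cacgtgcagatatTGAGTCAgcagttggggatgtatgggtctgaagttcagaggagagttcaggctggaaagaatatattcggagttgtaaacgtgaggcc
PFKFB3 downstream (chr10:6317372-6317472): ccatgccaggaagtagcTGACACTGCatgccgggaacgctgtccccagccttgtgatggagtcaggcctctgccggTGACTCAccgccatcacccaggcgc

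The third group shows sites of a single factor. The SLC2A1 and PFKFB3 stretches lie in Nrf2 peaks with paired TGACTCA, and the HK2 stretch lies in the widest HIF1α peak of these genes, where capitals mark ACGTG or GCGTG.
SLC2A1 upstream (chr1:43432910-43433010): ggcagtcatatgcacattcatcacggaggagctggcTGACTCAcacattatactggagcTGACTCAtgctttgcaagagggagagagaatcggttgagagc
PFKFB3 past the canonical end (chr10:6281312-6281412): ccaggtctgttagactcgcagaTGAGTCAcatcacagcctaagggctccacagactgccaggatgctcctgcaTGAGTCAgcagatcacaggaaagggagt
HK2 intron 1 (chr2:75062016-75062195): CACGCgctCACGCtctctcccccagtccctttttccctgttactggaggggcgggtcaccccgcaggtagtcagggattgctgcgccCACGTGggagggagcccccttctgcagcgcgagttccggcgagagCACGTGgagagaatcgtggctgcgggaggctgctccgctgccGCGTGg

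Most of these genes had peaks of both factors within 50 kb, and all of them had one of HIF1α with iAs in that window. Within 50 kb, 6 of the 10 genes had an Nrf2 peak in control cells, against 20.0% of all protein-coding genes. With iAs, 8 of the 10 had one, against 35.0% of all genes, and PFKL and PFKM had none. For HIF1α, 8 of the 10 had a peak in control cells, against 45.5% of all genes, and PFKM and PFKFB4 had none. With iAs, all 10 had a HIF1α peak, against 68.6% of all genes. The only such peaks of PFKM and PFKFB4 lay nearest to the canonical starts of SENP1 and SHISA5. Kept by nearest canonical start, 8 of the 10 genes had one, and the share of all genes was not computed under that rule. SLC2A1, HK1, GPI, PFKP and PFKFB3 had peaks in all 4 libraries, and the share of all protein-coding genes with such peaks was not computed. The annotated spans of the 10 genes had a median of 51.8 kb, against 27.2 kb over all protein-coding genes, which makes their search windows longer, and the part of this in the counts was not tested.

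**Figure D1:**
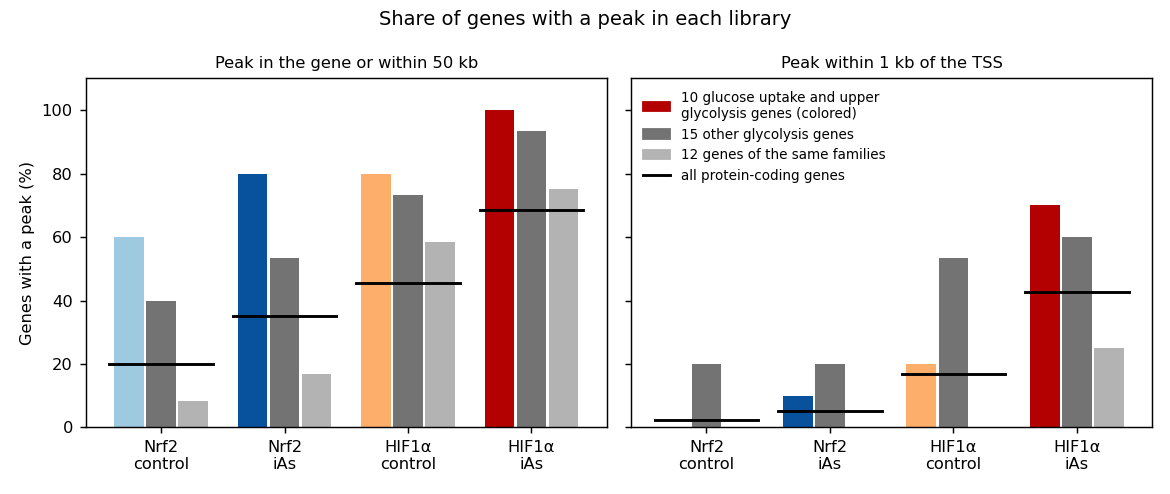
Bars give the percent of genes with a peak in each library, for the 10 genes (colored), 15 other glycolysis genes (dark gray) and 12 genes of the same families (light gray), with a black line for all protein-coding genes; the left panel counts peaks in the gene or within 50 kb, the right panel peaks within 1 kb of the transcription start site (TSS). The colored bars on the left stand at 60.0%, 80.0%, 80.0% and 100%, each above the black line, and on the right the only colored bar over 20.0% is that of HIF1α with iAs, at 70.0%.

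The relatives of these genes are other SLC2A transporters, other hexokinases and the enzymes PFKFB1 and PFKFB2. Of 12 such genes, 1 had an Nrf2 peak within 50 kb in control cells and 2 with iAs, while 7 had a HIF1α peak in control cells and 9 with iAs. HKDC1, a hexokinase-like gene beside HK1, had peaks in all 4 libraries, and SLC2A14, HK3 and PFKFB1 had none. Of 15 genes of the later steps, from aldolase to lactate dehydrogenase, 6 and 8 had an Nrf2 peak without and with iAs, and 11 and 14 a HIF1α peak. ALDOA, TPI1, GAPDH, ENO1, ENO2 and PKM had peaks in all 4 libraries, and LDHB had none.

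The number of peaks near the 10 genes rose with iAs for both factors, much as it did over the whole lists. For Nrf2 there were 9 control peaks and 20 peaks with iAs, a ratio of 2.22, against 2.42 over the genome. For HIF1α there were 12 and 27, a ratio of 2.25, against 2.13 over the genome. The 68 peaks lay unevenly, from 1 at PFKM to 12 at PFKP.

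**Figure D2:**
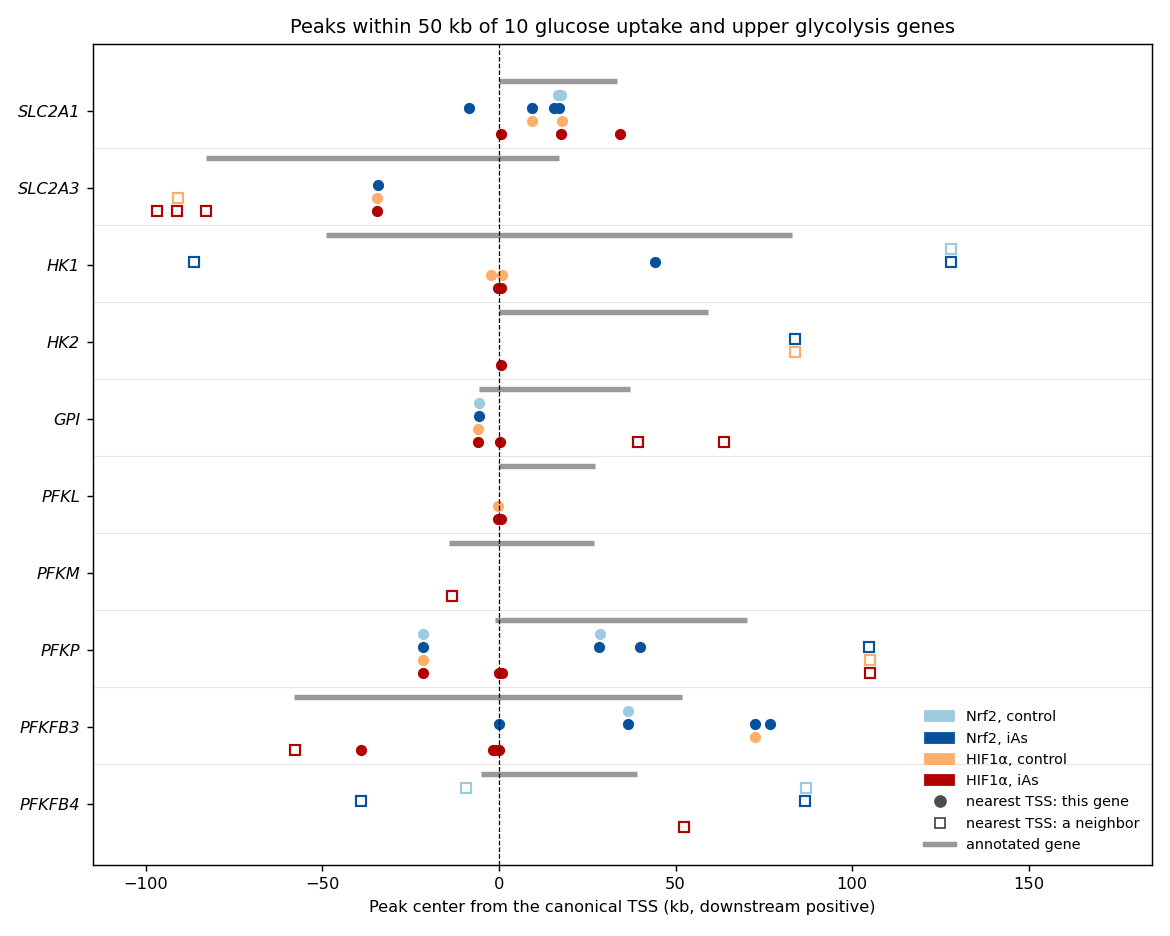
Each symbol is the center of a peak, with a row per gene and a color per library. Its place is the distance from the TSS of the canonical transcript (kb). Among the canonical starts of all protein-coding genes, filled circles have the gene's own as the nearest and open squares have that of a neighbor. Gray bars are the annotated gene. The 27 HIF1α peaks with iAs gather near the dashed line, with a median distance of 13.4 kb, whereas the 20 Nrf2 peaks with iAs have a median distance of 37.7 kb.

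A peak with iAs was taken as new when no control peak of that factor overlapped it by at least 1 bp. All 10 genes had a new HIF1α peak, against 59.6% of all genes, and 7 had a new Nrf2 peak, against 25.4%. GPI, PFKL and PFKM had no new Nrf2 peak. Counted as peaks, 13 of the 20 Nrf2 peaks with iAs were new (65.0%, against 62.0% over the whole list), and 19 of the 27 HIF1α peaks (70.4%, against 75.2%).

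Peaks that were lost with iAs came mostly from HIF1α. A HIF1α peak of control cells without a counterpart with iAs was found at SLC2A1, HK1, HK2 and PFKFB3, which are 4 of the 10 genes against 19.9% of all genes. These were 4 of the 12 HIF1α control peaks, or 33.3%, against 46.3% over the whole list. For Nrf2, PFKFB4 alone had a lost peak, which is 1 of the 10 genes against 1.55% of all genes. That peak lay closer to the start of UCN2 than to that of PFKFB4.

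At the canonical start sites of these genes, HIF1α with iAs had 10 peaks with a center within 1 kb, and HIF1α in control cells had 2. Nrf2 with iAs had 1 and Nrf2 in control cells had 0. Within 1 kb of the canonical TSS, 7 of the 10 genes had a HIF1α peak with iAs, against 42.6% of all genes, and these were SLC2A1, HK1, HK2, GPI, PFKL, PFKP and PFKFB3. In control cells 2 had one, HK1 and PFKL, against 16.7% of all genes. No gene of the 10 had an Nrf2 peak there in control cells, against 2.32% of all genes, and 1 had one with iAs, PFKFB3, against 5.17%. SLC2A3, PFKM and PFKFB4 had no peak of either factor at the canonical start.

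**Figure D3:**
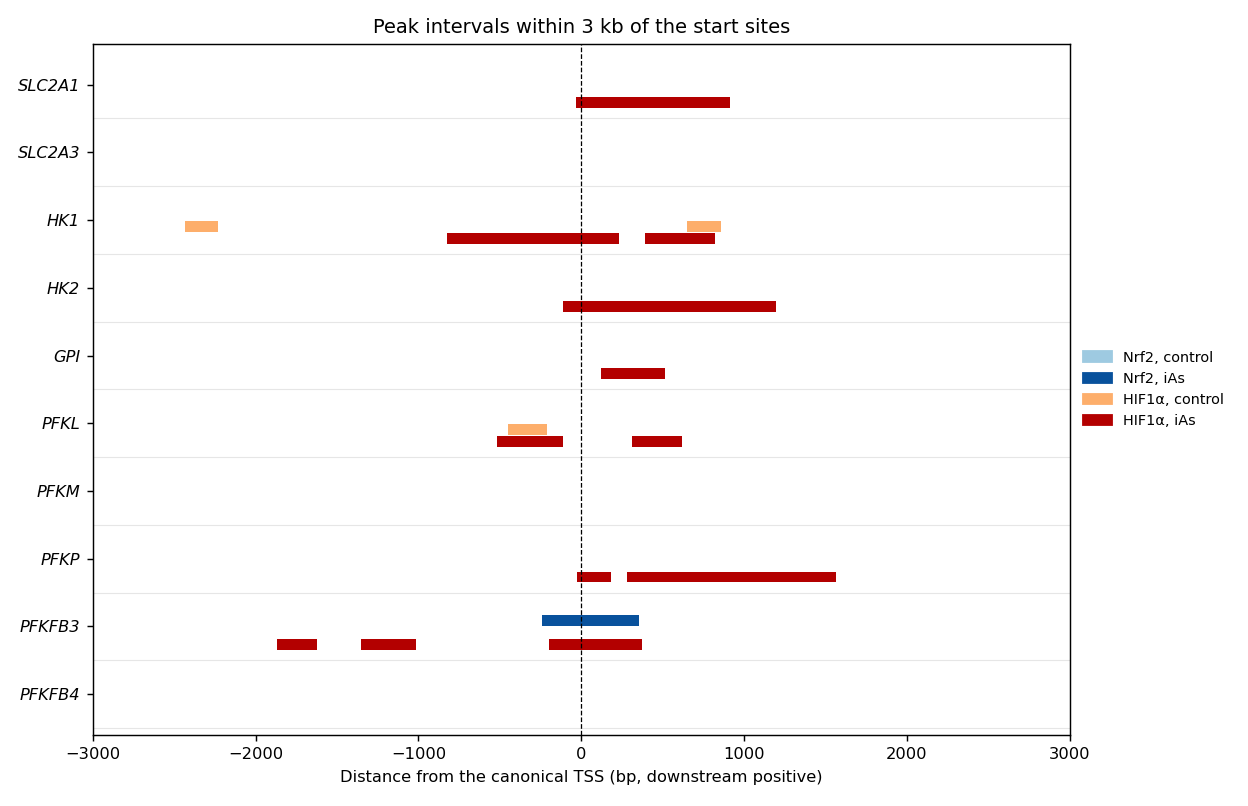
Bars are the peak intervals within 3 kb of the canonical TSS of each gene (bp, downstream positive), colored by library. HIF1α with iAs has a bar over the dashed line or within 1 kb of it at 7 genes, HIF1α in control cells at 2, and Nrf2 with iAs at PFKFB3 only.

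SLC2A1, which codes for the basal glucose transporter GLUT1, had 11 peaks, and those of both factors met in its second intron. The gene lies on the minus strand at chr1:43391024-43424564. In intron 2, HIF1α had a peak of 373 bp in control cells, centered 17.7 kb downstream of the TSS, and one of 387 bp with iAs at 17.6 kb. The centers of these HIF1α peaks were 78 bp apart, and the smaller of the Nrf2 control peaks, of 308 bp, had its center 5 bp from that of HIF1α with iAs. The longer Nrf2 control peak lay 16.8 kb from the TSS and held the element TGACTCAGC printed above, where TGACTCA and TGACNNNGC overlap. With iAs a single Nrf2 peak covered the smaller one and 1137 of the 1146 bp of the longer one. It was wider than 99.0% of the peaks in its library.

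SLC2A1 had 3 more Nrf2 peaks, all with iAs alone. One of 435 bp lay 15.5 kb from the TSS in intron 1, one of 421 bp lay 9375 bp from it in the same intron, and one of 325 bp lay upstream at -8405 bp. The upstream peak carried TGACTCA 2 times within its central 201 bp. The peak at 9375 bp covered all 199 bp of a HIF1α peak of control cells that had no counterpart with iAs. At the start of the gene HIF1α had a peak of 943 bp, with iAs only, which covered the TSS and held 6 matches to ACGTG or GCGTG. A further HIF1α peak of 329 bp lay past the end of the gene at 34.3 kb, also with iAs only.

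SLC2A3 codes for GLUT3, a transporter of high affinity for glucose, and no peak lay near its canonical start. The gene is on the minus strand at chr12:8071826-8171603, and its canonical transcript fills only the part nearest to the end of the gene. The nearest peaks lay inside a longer transcript, at -34.6 kb, where HIF1α had 353 bp in the control and 467 bp with iAs. An Nrf2 peak of 181 bp, with iAs only, stopped 15 bp short of that HIF1α peak, so the peaks did not overlap. Both HIF1α peaks held 2 matches to ACGTG or GCGTG in their central 201 bp, and neither held TGACTCA.

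The other SLC2A3 peaks were those of HIF1α toward the gene FOXJ2. One of 207 bp, with iAs only, lay at -122 bp from the start of the longer SLC2A3 transcript. Peaks of 292 bp in the control and 263 bp with iAs overlapped near -91.0 kb, where the nearest protein-coding start was that of FOXJ2. The last, of 601 bp with iAs only, lay 334 bp from the FOXJ2 start.

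HK1, the hexokinase of most tissues, had HIF1α at its start in both conditions, with a different layout. The gene is on the plus strand at chr10:71029740-71161640 and has 11 start sites among its basic transcripts. In control cells HIF1α had a peak of 200 bp at -2332 bp and one of 210 bp at 753 bp. With iAs the first was absent, a peak of 1054 bp covered the TSS, and a peak of 429 bp at 608 bp overlapped the second. The peak over the TSS held 8 matches to ACGTG or GCGTG, while the lost peak at -2332 bp held none and held 1 TGACTCA.

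No Nrf2 peak was found at the start of HK1. With iAs it had a peak of 421 bp in intron 3, at 44.1 kb, with 1 TGACTCA and 1 TGACNNNGC in its central 201 bp. A site shared by both conditions, of 366 bp in the control and 475 bp with iAs, lay 128 kb downstream and nearer to TSPAN15. A peak of 659 bp with iAs lay upstream at -86.4 kb, nearest to HKDC1.

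HK2, the hexokinase known to rise in growing and hypoxic cells, had 3 peaks. HK2 is on the plus strand at chr2:75061254-75120486. The HIF1α peak with iAs that covered its TSS was the widest HIF1α peak of the 10 genes and held 15 matches to ACGTG or GCGTG, 11.5 per kb. Of all HIF1α peaks with iAs, 6.13% were at least as dense in these letters, and the central 201 bp of the HK2 peak held none of them. The stretch printed above holds 7 of the matches, CACGTG counting on both strands. No HIF1α peak lay there in control cells.

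The HIF1α peak of control cells near HK2 lay instead 83.8 kb downstream of the TSS, with a width of 248 bp. With iAs no HIF1α peak was found there, and an Nrf2 peak of 313 bp covered 244 bp of the same interval. TGACTCA occurred once in it. The nearest protein-coding start was that of POLE4, 40648 bp from the Nrf2 peak.

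GPI, which interconverts the phosphates of glucose and fructose, had a site with all 4 libraries and no other Nrf2 peak. Its plus-strand position is chr19:34850385-34893318. The site lay near -5.7 kb from the canonical TSS, where the annotated span of GPI begins. HIF1α had 386 bp in control cells at -5816 bp and 339 bp with iAs at -5823 bp, so this peak was narrower with iAs. Nrf2 had 408 bp in control cells at -5586 bp and 608 bp with iAs. The centers of the HIF1α and Nrf2 peaks with iAs were 175 bp apart.

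The letters under these peaks differed from one side of the site to the other. The central 201 bp of each HIF1α peak held 9 matches to ACGTG or GCGTG, a number reached by 6 of 6008 HIF1α peaks in control cells and 8 of 12826 with iAs. Neither HIF1α peak held TGACTCA. Both Nrf2 peaks held the element TGACTCAGC in their central 201 bp, in the stretch of 29 bp printed above. The Nrf2 peak with iAs also held 13 matches to ACGTG or GCGTG, and 0.103% of all Nrf2 peaks with iAs were at least as dense.

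HIF1α with iAs added 3 peaks at GPI. One of 390 bp lay in intron 1 at 318 bp from the TSS. The others, of 328 bp and 478 bp, lay downstream within 1 kb of the starts of PDCD2L and UBA2.

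PFKL, the liver type subunit of phosphofructokinase, had HIF1α peaks alone, all near its start. It occupies chr21:45719934-45747259 on the plus strand. Upstream, HIF1α had a control peak of 239 bp at -329 bp and a peak of 409 bp at -314 bp with iAs, and the first lay wholly within the second. A second peak of 308 bp, with iAs only, lay in intron 1 at 466 bp.

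PFKM, the muscle type subunit, had the fewest peaks. PFKM is on the plus strand at chr12:48498922-48540187. Its single peak, of HIF1α with iAs, spanned 590 bp at -13.4 kb from the canonical TSS. Its center lay 79 bp downstream of an alternative PFKM start and 77 bp from the start of SENP1, a gene of the opposite direction. None of the letters searched occurred in it.

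PFKP, the platelet type subunit, had 12 peaks, the most of the 10 genes, and Nrf2 sites away from the start in both conditions. It lies at chr10:3108525-3179910 on the plus strand. Upstream, near -21.6 kb, all 4 libraries had a peak, of 728 bp and 737 bp for Nrf2 without and with iAs, and of 216 bp and 317 bp for HIF1α. The HIF1α peaks lay wholly within the Nrf2 peak with iAs. All 4 held 1 TGACNNNGC in their central 201 bp, and none held TGACTCA.

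In intron 2 of PFKP, at 28.5 kb in control cells and 28.3 kb with iAs, Nrf2 peaks of 1300 bp and 1418 bp shared 1154 bp. Each held 4 TGACTCA and 2 TGACNNNGC, and no HIF1α peak was found there. A narrower Nrf2 peak of 319 bp, with iAs only, lay in intron 8. At the start, HIF1α had a peak of 209 bp in exon 1 and a peak of 1285 bp in intron 1, both with iAs only. Another group of peaks, of Nrf2 with iAs and of HIF1α in both conditions, lay 113 bp to 376 bp from the start of PITRM1, downstream of PFKP.

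**Figure D4:**
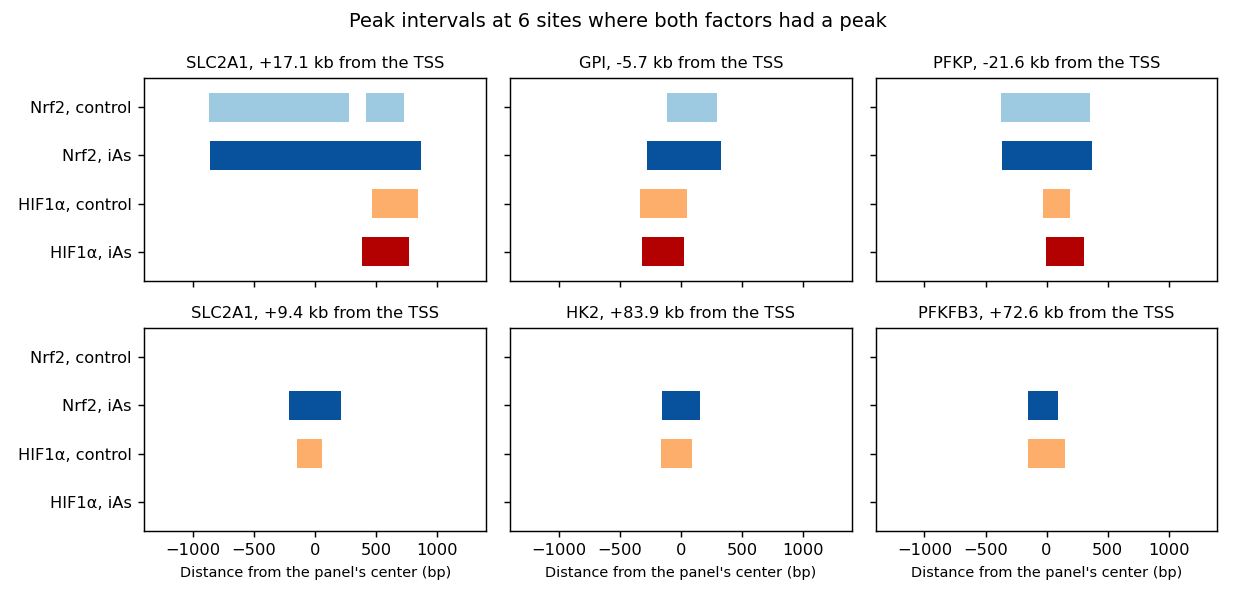
Bars are peak intervals (bp from the center of each panel, downstream positive) at the 3 sites with a peak in all 4 libraries (top) and the 3 sites with a HIF1α peak in control cells and an Nrf2 peak with iAs only (bottom), with a row per library. At the top the bars of the factors overlap in both conditions, and at the bottom the rows of Nrf2 in control cells and of HIF1α with iAs are empty.

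PFKFB3 makes the fructose bisphosphate that activates phosphofructokinase, and it is known as a hypoxia-induced gene. Its transcripts span chr10:6186897-6296607 on the plus strand. It was the only one of the 10 with an Nrf2 peak at the canonical start. That peak, of 597 bp with iAs only, had its center 58 bp from the TSS in the 5′-UTR of exon 1. HIF1α with iAs had 574 bp at 88 bp, and the peaks shared 555 bp. Neither factor had a peak there in control cells. Each peak held 5 matches to ACGTG or GCGTG, and neither held TGACTCA or TGACNNNGC.

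Upstream of this start HIF1α had 4 more peaks, all with iAs only. Those of 336 bp and 247 bp lay at -1184 bp and -1746 bp, and one of 317 bp lay at -39.0 kb. The last, of 734 bp, had its center 151 bp downstream of the outermost PFKFB3 start and held 7 matches to ACGTG or GCGTG.

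Downstream, PFKFB3 had Nrf2 peaks. One shared by both conditions, of 340 bp in the control and 580 bp with iAs, lay past the end of the canonical transcript and inside a longer one, at 36.5 kb and 36.4 kb. It carried the paired TGACTCA printed above. Farther on, at 72.5 kb, an Nrf2 peak of 241 bp with iAs lay wholly within a HIF1α peak of control cells of 299 bp, which had no counterpart with iAs. This interval also held 2 TGACTCA. A narrow Nrf2 peak of 181 bp, with iAs only, lay at 76.7 kb.

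PFKFB4, the other regulatory enzyme of this pair known to respond to hypoxia, had peaks only outside the gene, each nearer to the start of a neighbor. The gene is on the minus strand at chr3:48555117-48599448. Nrf2 had 493 bp in the control and 867 bp with iAs about 86.8 kb downstream, beside the start of TREX1. The Nrf2 peak lost with iAs, of 233 bp, lay upstream at -9365 bp. A new one of 450 bp lay at -39.0 kb, 485 bp from the start of COL7A1. The only HIF1α peak, of 252 bp with iAs, lay 275 bp from the start of SHISA5.

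Peaks of the factors met at several of these genes. With iAs, an Nrf2 peak and a HIF1α peak overlapped by at least 1 bp at 4 genes, SLC2A1, GPI, PFKP and PFKFB3, against 12.7% of all genes. With a reciprocal overlap of 50%, PFKP and PFKFB3 remained. PFKP remained only through the pair beside the start of PITRM1, which shared 424 bp. At the upstream site of PFKP, HIF1α with iAs met 317 of the 737 bp of the Nrf2 peak, too little for this rule. When the peaks of the 4 libraries were merged, 44 sites were obtained near the 10 genes, of 21088 in all. Sites with all 4 libraries were 3 of the 44, or 6.82%, against 1.59% of all sites. At 3 genes, SLC2A1, HK2 and PFKFB3, a HIF1α peak lost with iAs overlapped a new Nrf2 peak, against 3.86% of all genes. As sites these were 6.82% of the 44, against 2.86% of all. The lost HIF1α peaks at SLC2A1 and HK2, of 199 bp and 248 bp, were narrower than the median of 276 bp of their list. That of PFKFB3, of 299 bp, was wider. The count of these genes was not recomputed under the other settings.

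The commonest kind was the site of a single library. HIF1α with iAs alone made up 18 of the 44 sites, or 40.9%, against 43.6% of all sites. Nrf2 with iAs alone made up 8, or 18.2%, against 16.7%. These shares stood near those of the genome. A site of HIF1α in control cells alone was found once, at HK1, or 2.27% against 7.62%.

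Peaks shared by both conditions were mostly wider with iAs, near these genes as over the genome. Each peak with iAs was set against the full extent of the control peaks it overlapped, which matters in SLC2A1 intron 2, where 1 Nrf2 peak of 1729 bp met 2 control peaks that span 1593 bp. For Nrf2 all 7 shared peaks were wider with iAs, against 2688 of 2939 such peaks of the genome. The median ratio was 1.3, against 1.61 over the genome. Near these genes the ratios ran from 1.01, at the upstream site of PFKP, to 1.76, beside TREX1 in the window of PFKFB4. For HIF1α 6 of 8 shared peaks were wider, against 2398 of 3175 over the genome, with a median ratio of 1.4 against 1.42. Of the 8, the narrower ones were those of GPI and of the distant SLC2A3 site. Over all their peaks, the 10 genes had median widths of 408 bp and 462.5 bp for Nrf2 without and with iAs, against 309 bp and 333 bp for the whole lists. For HIF1α the medians were 268.5 bp and 390 bp, against 276 bp and 340 bp.

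**Figure D5:**
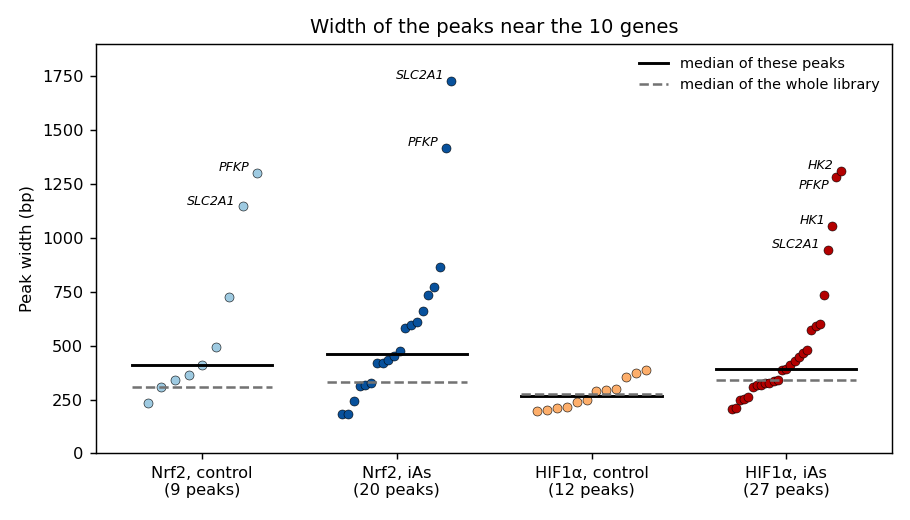
Each point is a peak near the 10 genes, placed by its width (bp) in order within its library; black lines are medians of these peaks and dashed gray lines medians of the whole list, and the gene is named beside the widest peaks. Both Nrf2 medians lie above the dashed line, and all 12 HIF1α peaks of control cells lie between 199 bp and 386 bp.

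The letters searched were counted on both strands in the central 201 bp of each peak. TGACTCA occurred in 4 of 9 Nrf2 peaks in control cells and in 9 of 20 with iAs, or 44.4% and 45.0%, against 47.8% and 38.3% of the whole lists. Of the HIF1α peaks, 3 of 12 in control cells held it and 1 of 27 with iAs, or 25.0% and 3.70%, against 14.5% and 2.39%. Of windows of the same length at the canonical starts of all protein-coding genes, 2.14% held it. The share in HIF1α peaks was higher in control cells than with iAs, near these genes as over the genome. The 3 control peaks with TGACTCA lay in SLC2A1 intron 2, upstream of HK1 and downstream of PFKFB3.

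The element TGACNNNGC occurred in 3 of 9 and 5 of 20 Nrf2 peaks, or 33.3% and 25.0%, against 42.4% and 31.6% of the whole lists. It occurred in 2 of 12 and 3 of 27 HIF1α peaks, or 16.7% and 11.1%, against 12.8% and 10.1%, and in 2023 of 20162 windows at protein-coding starts. Some of these matches overlap those of TGACTCA. The hypoxia core, ACGTG or GCGTG, occurred in 8 of 12 HIF1α peaks in control cells and 16 of 27 with iAs, or 66.7% and 59.3%, against 47.7% and 52.4%. Of the Nrf2 peaks, 3 of 9 and 9 of 20 held them, or 33.3% and 45.0%, against 24.9% and 26.0%, and 43.3% of the windows at all starts did.

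Counted over whole peaks, ACGTG or GCGTG came to 3.38 and 3.67 per kb in the Nrf2 peaks of these genes without and with iAs, against 1.77 and 1.82 per kb over the lists. In the HIF1α peaks they came to 7.26 and 6.2 per kb, against 3.99 and 4.34. The upstream GPI site gave 8 of 18 matches in Nrf2 peaks of control cells, 13 of 43 with iAs, 10 of 24 in HIF1α peaks of control cells and 9 of 84 with iAs. Without that site the densities were 2.04 and 2.7 per kb for Nrf2 and 4.8 and 5.68 per kb for HIF1α, an alternative chosen after the values were seen. The median share of G and C was higher near these genes than in the lists for Nrf2, with 58.7% and 55.7% against 46.3% and 47.3%. For HIF1α it was 60.7% against 60.2% in control cells and 69.7% against 70.6% with iAs. The part of base composition in the Nrf2 densities was not tested.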

How the data were processed

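BEAS-2B cells, with or without 1 μM iAs for 6 h, were immunoprecipitated with antibodies against Nrf2 or HIF1α, with 1 library for each antibody and condition. Per the labels, the authors aligned reads to hg19 with BWA and called peaks with MACS2 2.1.0, while their methods name MACS or SICER. Tags of a group were down-sampled to the sample with the fewest. The deposited values are interval starts and ends in bp, with no score or signal, so depth and the precision it gives are unknown. Merged regions, also deposited, were used only to check the 21088 sites obtained here.

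Starts were made 1-based. Overlaps of at least 1 bp, positions from the canonical TSS (GENCODE release 44 on GRCh37, 20162 protein-coding genes without the mitochondrial genome) and motifs in the 100 bp on each side of a center were computed in Python 3.11.15 with pysam 0.24.0, tested on simulated data, and the counts of peaks per gene recounted with bedtools 2.31.1, with the same result. Figures were drawn with matplotlib 3.10.9. All 10 genes are named, and neighbors are named where their canonical start is nearest to a peak. Genes of the comparison lists are named only with peaks in all 4 libraries or in none. The genes, lists and motifs were chosen with earlier results of these data known. Shares of genes and peaks are descriptions, since genes are not replicates. The alternatives tried were distances of 10 kb and 2 kb, the wider 50% of peaks, only peaks nearest to the gene, a reciprocal overlap of 50%, gaps of up to 1 kb, a TSS distance of 3 kb, all basic transcripts and motifs in whole peaks.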

Additional observations from a re-analysis of the deposited data

How the results depend on the processing

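Of the counts recomputed under other settings, 60 stayed within 1.5 times the reported count and 24 did not. With windows of 10 kb or 2 kb, or only the wider 50% of peaks, genes with a HIF1α peak in control cells fell to 5. Genes with a lost Nrf2 peak came to 0 at 2 kb, with the wider peaks and with peaks nearest to the gene only, and to 2 (SLC2A1 and PFKFB4) with a reciprocal overlap of 50%. Genes with a lost HIF1α peak came to 2 at 10 kb and at 2 kb. With the wider 50% of peaks they came to 3, within 1.5 times, but the genes changed. They were then SLC2A3, GPI and PFKFB3, without SLC2A1, HK1 and HK2. With the wider peaks, genes with HIF1α at the start in control cells came to 0. Genes where the factors overlapped with iAs came to 2 with a reciprocal overlap of 50%. Nrf2 peaks in control cells came to 5 at 2 kb, and Nrf2 peaks with iAs to 11 at 10 kb and 10 at 2 kb. HIF1α peaks in control cells came to 7 at 2 kb and 6 with the wider peaks, and those with iAs to 15 with the wider peaks. In whole peaks, TGACTCA was found in 8 Nrf2 peaks in control cells and 14 with iAs, TGACNNNGC in 5 and 9 Nrf2 peaks and in 6 HIF1α peaks with iAs, and ACGTG or GCGTG in 6 and 14 Nrf2 peaks. Taking every overlapping pair in place of 1 ratio per peak with iAs, a choice made after the values were seen, gave a median width ratio of 1.5 for Nrf2 and 1.4 for HIF1α. Some planned settings keep fewer peaks or shorter windows, demand a longer overlap, or search a longer stretch. Others are looser, namely the TSS distance of 3 kb, the starts of all basic transcripts and gaps of up to 1 kb. With such gaps counted as shared, genes with a new HIF1α peak came to 8. No paired analysis was possible because there was 1 library per antibody and condition and no result comes from a test, and no library could be left out for the same reason. Depth and peak heights are unknown, so an absent peak may be one below the limit of calling.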

Other observations

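The search windows also held start sites of neighboring genes. Nearness was judged by the canonical start of each protein-coding gene alone. In all, 13 neighbors had the nearest such start to at least 1 of the 68 peaks. The gene's own canonical start was the nearest for 6 of 9 Nrf2 peaks in control cells and 14 of 20 with iAs. For HIF1α it was the nearest for 9 of 12 peaks in control cells and 18 of 27 with iAs. Under this rule the HIF1α peak 151 bp from the outermost PFKFB3 start counted for RBM17. The one at -122 bp from the start of the longer SLC2A3 transcript counted for FOXJ2. HIF1α with iAs had 10 peaks with a center within 1 kb of the canonical starts of the 10 genes. It had 6 within 1 kb of those of FOXJ2, PDCD2L, UBA2, SENP1, PITRM1 and SHISA5. Nrf2 with iAs had 1 such peak at PFKFB3 and 3 at PITRM1, the exonuclease gene TREX1 and the collagen gene COL7A1. Counted over the canonical starts of all protein-coding genes, these came to 59.3% of the HIF1α peaks with iAs, against 72.6% of the whole list. Of the Nrf2 peaks with iAs they came to 20.0%, against 11.9%. When only peaks nearest to their own gene were kept, 8 of the 10 genes had a HIF1α peak with iAs and 6 had an Nrf2 peak with iAs. A new HIF1α peak then remained at 7 genes and a new Nrf2 peak at 5.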
